A study of Mus musculus with 8 samples.

Results

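Antisense noncoding transcripts were followed across mouse oocytes and cultured pluripotent cells. An antisense transcript, in the sense of the gene annotation behind the deposited tables, is a noncoding RNA that lies on the strand opposite an annotated gene or is named as doing so. Members were all transcripts whose class field in the tables reads antisense, which gave 3437 of 117667 transcripts, belonging to 2416 genes. RNA was sequenced in 8 libraries of 4 groups of 2, as stranded paired-end libraries from TRIzol-extracted total RNA. GV are oocytes at the germinal vesicle stage, held in prophase with 2 µM milrinone, from mice given 5 units of PMSG 48 h before an unnamed injection. MII are oocytes at metaphase II, and their label repeats the GV protocol with no maturation step. ESC are embryonic stem cells in 15% FBS with LIF and both inhibitors of the 2i medium, PD0325901 and CHIR99021. EpiC are in vitro epiblast cells, made from ESC that were plated for 24 h and collected about 56 h after LIF and inhibitors were withdrawn. The labels name no strain, animal age or cell clone, and the source of the 2 replicates of a group (the same or different animals or dishes) is not in them. The p-values therefore measure only the spread between these libraries, which may be technical.

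RNA made from the opposite strand of a gene can share its promoter region, run through its exons or lie inside an intron, and the act of transcription or the RNA itself can change how the sense gene is used. The textbook cases are imprinted and X-linked: Tsix runs across Xist and opposes it in the early embryo, Airn and Kcnq1ot1 silence neighbouring genes on one parental chromosome, and Snhg14 extends across Ube3a. Growing oocytes store large amounts of RNA and then stop transcription. Retrotransposon promoters active in mouse oocytes are known to drive many noncoding RNAs that other cells lack.

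Of the 3437 members, 3419 could be placed on GENCODE M21 (GRCm38). Among the placed members, 1602 lay wholly inside a gene of the other strand, 723 overlapped one head to head (start against start), 471 tail to tail, and 141 spanned it. A further 482 had no gene of the tables on the other strand, so their class rests on the annotation. Of all members, 1549 shared no exonic base with an exon of the other strand and 125 shared 90% or more. The kit marks strand, but the labels do not tell if the authors' counting used strand, so for members with shared exons, reads of the 2 strands cannot be told apart with certainty. Assignment of reads among isoforms adds an error that the tables do not give.

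Total estimated counts ran from 47463546 (EpiC replicate 1) to 196788239 (MII replicate 2), and replicate 2 was the deeper library of every group. The 6 listed oocyte markers were all at 1 TPM or more in GV and MII, and the 6 listed pluripotency markers in ESC and EpiC. TPM is a level per transcript length, scaled to the same total in every library. Of 11 cumulus and granulosa cell markers, 3 to 5 reached 1 TPM in the oocyte libraries, with summed levels of 33.3 to 155 TPM against 2.81 to 24.0 TPM in the cultured libraries. Of 8 fibroblast feeder markers, 1 or 2 reached 1 TPM in oocytes (summed 2.54 to 8.82 TPM) and 2 to 4 in cultured cells (94.4 to 231 TPM, led by Vim and Tagln). The part of these cells in the results was not tested. Gm42418, a gene model that overlaps ribosomal RNA sequence, took 14.7% of counts in ESC replicate 2 and 22.7% in EpiC replicate 2, against 0.0220% to 3.03% in the other 6 libraries.

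The sequences shown belong to members that stand at the top of a group or comparison and have a promoter window in RefSeq (GRCm38.p6) whose start lies within 100 bases of the member's own. Capitals mark matches on either strand to a TATA box motif (TATAAA), to the CCAAT box motif, or to a motif of the GC box family of promoter elements (GGGCGG). Stretches annotated as UTR of any gene were left out, which shortened the windows of 2810408I11Rik and A930024E05Rik. Arhgap20os (chr9:51875836-51876135, minus strand) and 2810408I11Rik (chr1:64690627-64690821, minus strand) lead the oocyte side. Rab26os (chr17:24528001-24528300, plus strand), AA465934 (chr11:83291449-83291748, plus strand) and A930024E05Rik (chr5:122989307-122989403, plus strand) belong to the cultured side.
Arhgap20os: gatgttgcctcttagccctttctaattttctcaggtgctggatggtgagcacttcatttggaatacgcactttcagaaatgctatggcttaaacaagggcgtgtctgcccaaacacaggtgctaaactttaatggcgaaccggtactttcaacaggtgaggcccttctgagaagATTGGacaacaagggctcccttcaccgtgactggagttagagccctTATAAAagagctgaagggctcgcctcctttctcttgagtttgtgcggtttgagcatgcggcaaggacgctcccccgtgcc
2810408I11Rik: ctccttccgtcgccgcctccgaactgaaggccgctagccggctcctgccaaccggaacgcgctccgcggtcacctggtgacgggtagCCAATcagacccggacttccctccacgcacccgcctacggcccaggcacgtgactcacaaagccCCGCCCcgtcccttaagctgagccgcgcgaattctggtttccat
Rab26os: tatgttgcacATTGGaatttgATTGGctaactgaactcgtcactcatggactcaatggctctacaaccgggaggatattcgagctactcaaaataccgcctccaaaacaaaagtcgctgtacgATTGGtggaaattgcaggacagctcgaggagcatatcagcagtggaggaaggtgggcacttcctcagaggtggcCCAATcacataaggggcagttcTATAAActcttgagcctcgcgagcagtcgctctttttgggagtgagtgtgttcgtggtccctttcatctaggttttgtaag
AA465934: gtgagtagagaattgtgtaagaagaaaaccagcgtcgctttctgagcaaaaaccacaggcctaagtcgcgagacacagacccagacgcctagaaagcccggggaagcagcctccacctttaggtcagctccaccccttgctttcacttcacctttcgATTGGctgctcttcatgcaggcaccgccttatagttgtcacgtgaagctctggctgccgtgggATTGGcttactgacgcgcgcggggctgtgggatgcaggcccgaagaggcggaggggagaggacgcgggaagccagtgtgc
A930024E05Rik: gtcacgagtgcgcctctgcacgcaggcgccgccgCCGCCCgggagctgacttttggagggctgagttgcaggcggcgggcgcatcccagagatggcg

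Of all 32817 RefSeq promoter windows of 300 bases, 13.6% held TATAAA, 37.4% CCAAT and 35.6% GGGCGG, and the median ratio of observed to expected CpG was 0.383. TATAAA lies close to the RefSeq start of both Arhgap20os and Rab26os, one a transcript of oocytes and the other of cultured cells. Isoform 001 of Arhgap20os starts at 51875803, downstream of the RefSeq start at 51875885, so the motif lies further from its own start. The Rab26os window is that of isoform 001. The windows that could be tied to members higher in GV than ESC numbered 89, of which 20.2% held GGGCGG, with a median CpG ratio of 0.322. The 30 windows of members lower in GV than ESC held GGGCGG in 46.7%, with a median CpG ratio of 0.516. In MII against EpiC the same figures were 23.5% and 0.361 for the 68 windows of higher members and 46.8% and 0.635 for the 47 windows of lower members. Members of GV against ESC that were not called had 195 windows, with GGGCGG in 48.2% and a median CpG ratio of 0.568. Of the 302 windows of all members that passed the count filter, 39.7% held GGGCGG, with a median CpG ratio of 0.455. A match is a description of letters only. The most abundant member in GV, Gm42817-001, has no window in that table, and the first 120 bases of its RNA, from the GENCODE M21 transcripts, are shown with exon 1 in capitals.
Gm42817-001: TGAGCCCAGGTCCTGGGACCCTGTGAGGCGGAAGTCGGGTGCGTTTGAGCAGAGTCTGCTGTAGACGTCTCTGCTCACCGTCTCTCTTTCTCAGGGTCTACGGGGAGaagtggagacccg

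Antisense RNA took a larger part of the GV libraries than of any other. Summed levels were 7928 and 7226 TPM in GV, 2535 and 2384 TPM in MII, 1710 and 2277 TPM in ESC, and 1830 and 2763 TPM in EpiC. In bulk RNA, fewer cells of a type and less RNA per cell cannot be told apart. Both GV libraries stood above all others. Both MII libraries stood above both ESC libraries, and the EpiC range overlapped those of MII and ESC. These sums include models that share sequence with many genes, described below, such as Gm15564-001 at 83.3 and 364 TPM in EpiC. Members at 1 TPM or more numbered 405 and 387 in GV, 201 and 196 in MII, 207 and 311 in ESC, with 211 and 300 in EpiC. With 2 libraries against 2, an exact permutation test cannot go below p = 0.333, so the sums carry no test. By share of estimated counts, antisense members took 0.386% and 0.406% in GV, 0.105% and 0.106% in MII, 0.104% and 0.168% in ESC, with 0.131% and 0.220% in EpiC. A few members made up much of each sum: the 10 highest held 35.7% to 37.1% in GV and 39.5% to 52.5% in the other libraries. Across the series 740 members reached 1 TPM in at least 1 library and 21 did so in all 8. Of those 740, 240 were higher in all 4 oocyte libraries than in all 4 cultured libraries, and 219 the other way round, 32.4% and 29.6%. Over all 53517 transcripts that reached 1 TPM in at least 1 library the shares were 15.2% and 41.3%. At 1 TPM or more in all 4 oocyte libraries and under 0.1 TPM in all 4 cultured libraries were 55 members, and 20 members showed the reverse, which is 7.43% and 2.70%, beside 2.03% and 4.96% of all such transcripts.

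**Figure D1:**
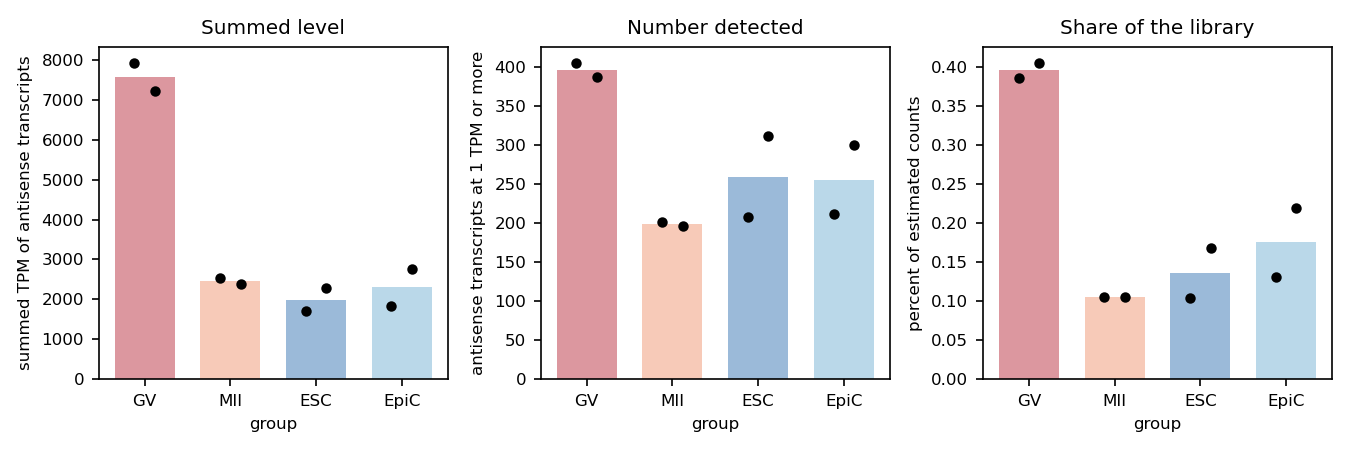
Summed TPM of antisense transcripts, number of antisense transcripts at 1 TPM or more, and percent of estimated counts in antisense transcripts, by group. Bars are means of 2 libraries and points are the libraries; both GV libraries lie above the other 6 in all 3 panels, for example 7928 and 7226 TPM against at most 2763 TPM.

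Per-transcript tests were made with edgeR's quasi-likelihood test on rounded estimated counts, with Benjamini-Hochberg adjustment over all transcripts that passed a filter on low counts and a threshold of 0.05. Of the members, 1305 passed that filter (38.0%, against 59.2% of all transcripts) and 2132 did not. Members near the detection limit in every group are not among those tested. A member could pass the filter through 1 group alone. Of those tested, 223 had no rounded count in 1 of the compared groups in GV against ESC, and 430 in MII against EpiC. In MII against GV, 105 had none in both groups. Counts were scaled by edgeR's TMM factors, which TPM does not use. The factors were 0.802 and 0.819 in GV, 0.444 and 0.387 in MII, 1.76 and 1.67 in ESC, with 1.84 and 1.64 in EpiC. A lower factor raises the scaled level. Fold changes of oocytes over cultured cells, and of MII over GV, therefore tend to lie above the ratios of the TPM printed beside them.

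GV oocytes differed from ESC at many antisense loci, more often by a higher level in GV. Of 1305 members tested, 386 were higher in GV, 108 lower and 811 not called. Over all 69656 transcripts tested, 19.2% were called higher and 16.7% lower, against 29.6% and 8.28% of the antisense members. LincRNA transcripts had shares of 34.4% and 11.4%, and protein-coding transcripts 25.0% and 14.8%. The median log2 fold change was 0.68 for antisense members and −0.69 for all transcripts. With members at 0 in 1 group set to their bound, the medians were 0.68 and −0.57. The antisense median moved with the settings. It was 0.08 with relative log expression or DESeq2, beside −1.29 over all transcripts with either. It was −0.03 with limma on log2(TPM + 1) and −0.11 with limma on log2(TPM + 0.1), beside −0.29 and −0.97. Without GV replicate 2 it was 0, beside −1.34, and with the compared groups alone it was 1.43, beside −0.40. Scaling by relative log expression moved the median of all transcripts by −0.59 and changed the split from 78.1% to 66.2% of calls on the GV side. The count of 386 was 245 without GV replicate 1, 231 without GV replicate 2, 197 without ESC replicate 1 and 177 without ESC replicate 2, and 160 members stayed called in all 4 of these fits.

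The most abundant single antisense transcript of GV oocytes was Gm42817-001 (chr5:128336777-128342778, plus strand). It lies inside Tmem132d, a gene for a cell surface protein, and shares no exonic base with it. Summed over all transcripts of its locus, A530040E14Rik stood higher in GV, at 1087 and 992 TPM. RP23-299N4.1 stood at 585 and 494 TPM in GV by the same sum. The levels of Gm42817-001 were 518 and 558 TPM in GV, 6.44 and 13.4 in MII, 0.0621 and 0 in ESC, with 0 in both EpiC libraries. The ESC value rests on 1 count, and the GV to ESC ratio was 17326 with a counting interval of 3110 to 684345 (adjusted p = 0.000743). Tmem132d itself was far lower, at 16.1 and 22.3 TPM in GV and 0.348 and 0.0859 TPM in ESC, but was also called higher in GV, by 5.62 ± 0.70 on the log2 scale (adjusted p = 0.000178).

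Arhgap20os, which ends against the 3′ part of Arhgap20, was expressed in oocytes of both stages. Its isoform 001 stood at 172 and 154 TPM in GV and 161 and 153 TPM in MII. In ESC it had no count, so the level in GV was at least 3727-fold higher (adjusted p = 0.000364). In EpiC it stood at 0 and 0.00876 TPM, the latter 1 count. The other annotated isoforms, 002 to 004, were also called higher in GV than ESC and in MII than EpiC. Arhgap20 followed at lower levels of 22.7 and 14.4 TPM in GV, 46.2 and 39.0 in MII, and 0.163 to 0.471 in the cultured libraries.

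Gm13752-001 (chr2:80394897-80400525, plus strand) has no gene of the tables on its other strand and shares no 31-base word with transcripts of other genes. It stood at 141 and 128 TPM in GV, 187 and 151 in MII and had no count in ESC, which puts GV at least 839-fold above it (adjusted p = 0.000368). Gm42650-001, inside the gene of the growth factor Egf and with no exonic overlap, stood at 36.9 and 36.0 TPM in GV and 56.2 and 50.7 in MII. It had no count in any cultured library, which makes it at least 284-fold higher in GV than ESC (adjusted p = 0.000765) and at least 369-fold higher in MII than EpiC (adjusted p = 0.000418). Egf moved with it, from 18.3 and 12.2 TPM in GV and 47.2 and 54.6 in MII to between 0.555 and 0.946 TPM in the cultured libraries.

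Gm20395-001, inside the kidney and eye transcription factor gene Pax2, stood at 44.0 and 55.8 TPM in GV and 6.24 and 6.73 in MII and had no count in cultured cells. The level in GV was at least 495-fold higher than in ESC (adjusted p = 0.000998). Pax2 was at 6.87 and 8.23 TPM in GV and at most 0.143 TPM in the cultured libraries. Igf1os-001, head to head with the gene for insulin-like growth factor 1, stood at 5.10 and 4.82 TPM in GV and 4.29 and 3.80 in MII. It had 0 counts in ESC, at least 225-fold below GV (adjusted p = 0.00077). Isoform 002 made up the larger part of the Igf1os locus, at 36.5 and 33.1 TPM in GV and 21.1 and 21.7 in MII.

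Several loci carried sequence shared with other genes, and their split is uncertain. A530040E14Rik, inside C130026I21Rik on chromosome 1, had A530040E14Rik-201 at 454 and 257 TPM in GV, 156 and 161 in MII and 0 in all cultured libraries, at least 7301-fold higher in GV than ESC (adjusted p = 0.000382). Of its 31-base words, 36.0% also occur in Gm10552, and those of Gm10552-201 all occur in A530040E14Rik. Gm10552-201, listed at 453 and 181 TPM in GV, therefore may hold reads of the same RNA. Over all isoforms of A530040E14Rik, ESC replicate 2 held 5.08 TPM and EpiC replicate 2 held 8.41 TPM. The bound above is therefore one of isoform 201 alone. By gene sums the log2 fold change of this locus in GV against ESC was 8.09. BC023719-001, in the major histocompatibility region of chromosome 17, had 94.7% of its exonic bases on exons of the other strand. It was listed at 122 and 168 TPM in GV, 61.9 and 107 in MII, and under 0.1 TPM in every cultured library.

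On the ESC side, Srrm4os-001, which overlaps the end of the neural splicing factor gene Srrm4, stood at 6.62 and 4.38 TPM in ESC and 0.190 and 0.0929 in EpiC. It had no count in any oocyte library, at least 439-fold lower in GV than ESC (adjusted p = 0.00291). Platr12-001, an RNA named for its association with pluripotency, lies inside Gpr1 without exonic overlap. It stood at 11.6 and 8.82 TPM in ESC, 8.49 and 5.09 in EpiC and 0 in all oocytes, at least 79.5-fold lower in GV than ESC (adjusted p = 0.00686). 1700042O10Rik-001, inside the aromatic amino acid decarboxylase gene Ddc, was at 7.61 and 3.43 TPM in ESC and 0 in oocytes, at least 127-fold lower in GV (adjusted p = 0.00801). Nphs1os-001 was likewise without a count in oocytes and stood at 3.10 and 2.65 TPM in ESC and 3 and 1.25 in EpiC.

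**Figure D2:**
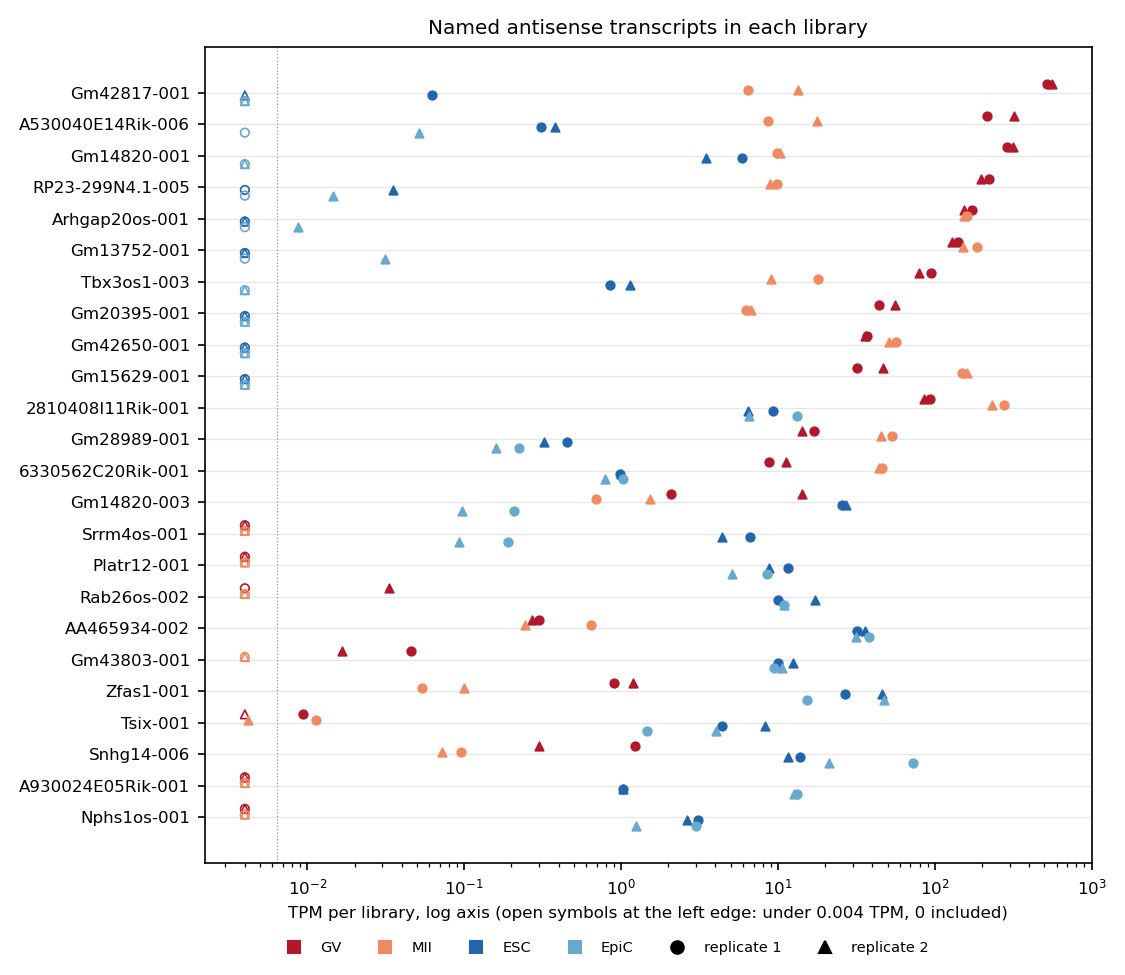
TPM of 24 antisense transcripts in each library on a log axis, with colours for groups and symbols for replicates; open symbols at the left edge mark values under 0.004 TPM, 0 included. Transcripts of oocytes fill the upper part, from Gm42817-001 at 518 and 558 TPM in GV, and those of cultured cells the lower part, such as Srrm4os-001 at 6.62 and 4.38 TPM in ESC.

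MII oocytes and EpiC differed with a more even split. Of 1305 members, 292 were higher in MII, 224 lower and 789 not called, shares of 22.4% and 17.2% against 18.7% and 27.5% over all transcripts. The median log2 fold change was −0.77 for antisense members and −1.96 for all transcripts, and −0.02 and −0.86 with members at 0 in 1 group set to their bound. With limma on log2(TPM + 1) the split was 211 higher and 341 lower, so the larger side depends on the scale. Without EpiC replicate 1 and without EpiC replicate 2 the higher count was 191 and 189, and the lower count was 133 and 97. Without MII replicate 1 and without MII replicate 2 the lower count was 113 and 68. Of members higher in GV than ESC, 264 were also higher in MII than EpiC, which is 68.4% of the first list and 90.4% of the second. Of members lower in GV than ESC, 72 were also lower in MII than EpiC, 66.7% and 32.1% of the lists. Both comparisons set oocytes against cultured cells within the same fit. The overlap over all transcripts was not computed, so these shares are not shown to be particular to antisense members.

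2810408I11Rik-001, which starts 204 bases from the start of the cyclin Y-like gene Ccnyl1 on the other strand, led the MII libraries. It stood at 92.7 and 85.0 TPM in GV, 278 and 232 in MII, 9.27 and 6.49 in ESC, with 13.3 and 6.53 in EpiC. MII exceeded EpiC by 6.42 ± 0.46 on the log2 scale (adjusted p = 0.000211). Ccnyl1 had nearly the same profile, with 102 and 63.1 TPM in GV, 279 and 240.2 in MII, and 17.5 to 25.2 TPM in cultured cells. Gm28989-001, which meets the nuclear import receptor gene Ipo11 tail to tail, stood at 16.9 and 14.3 TPM in GV, 53.8 and 45.6 in MII, 0.451 and 0.325 in ESC, with 0.224 and 0.160 in EpiC. It was higher in MII than EpiC by 9.69 ± 0.51 on the log2 scale (adjusted p = 0.000198). Ipo11 went the other way, at 8.67 and 6.14 TPM in MII against 48.7 and 19 in EpiC, by −1.55 ± 0.58 (adjusted p = 0.0385).

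Among members lower in MII than EpiC, A930024E05Rik-001 begins 469 bases from a start of Kdm2b, the gene of a histone demethylase and CpG-binding protein. It was at 0 in all 4 oocyte libraries, 1.03 and 1.03 TPM in ESC, and 13.2 and 12.7 TPM in EpiC. The level in MII was at least 464-fold lower than in EpiC (adjusted p = 0.00162). Kdm2b did not pass in MII against EpiC (adjusted p = 0.268), at 171 and 162 TPM in GV, 19.1 and 18.9 in MII, 113 and 97.6 in ESC, with 80.2 and 62.4 in EpiC. Rab26os-002, inside the gene of the small GTPase Rab26, stood at 10 and 17.3 TPM in ESC, 11 and 10.9 in EpiC, and 0.0333 TPM or less in oocytes, at least 73.1-fold lower in MII than EpiC (adjusted p = 0.00548). Isoform 001 made up the larger part of this locus in cultured cells, at 20.9 and 29.8 TPM in ESC and 44.8 and 44.2 in EpiC. AA465934-002 stood at 31.8 and 35.9 TPM in ESC, 38.4 and 31.4 in EpiC, 0.302 and 0.271 in GV, and 0.643 and 0.246 in MII. GV lay below ESC with a log2 fold change of −5.77 ± 0.84 (adjusted p = 0.00302), with no library of one kind near those of the other. In MII against EpiC the log2 fold change of AA465934-002 was −4.70, and by gene sums it was −2.64. Gm43803-001, inside Lhfp, stood at 9.43 to 12.5 TPM in the cultured libraries and at most 0.0456 TPM in oocytes.

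The members with the highest TPM in cultured cells were mostly models that share sequence with many genes. Gm44206-001 was listed at 220.5 and 180.4 TPM in ESC and 307 and 213 in EpiC, and 24.9% of its 31-base words occur in transcripts of other genes in the same orientation. For Gm29084-001, listed at 30.2 to 101 TPM in ESC, EpiC and GV, that share was 97.6%, and its value cannot be tied to its own locus. Gm15564-001 shares words with Lars2 and was listed at 162 and 216 TPM in ESC and 83.3 and 364 in EpiC. No result on these models is drawn from their levels.

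Between GV and MII most antisense RNAs that differed were lower in MII. Of 1305 members, 9 were higher in MII and 77 lower, 0.69% and 5.90%, against 5.53% and 10.7% over all transcripts. The median log2 fold change was −1.41 for antisense members and −0.73 for all transcripts, and −0.88 and −0.13 with bounds. These calls rest on few libraries: without MII replicate 1 none remained, without GV replicate 2 the counts were 3 and 4, without GV replicate 1 they were 2 and 17, and without MII replicate 2 they were 5 and 27. DESeq2 called 49 and 189, and at an unadjusted p under 0.05 edgeR had 31 and 294, or 2.38% and 22.5%. Over all transcripts these shares were 10.7% and 21.8%, so the lower count was near that background. In TPM, both GV libraries exceeded both MII libraries for 493 of the 740 members detected, and the reverse held for 53, which is 66.6% and 7.16%, beside 45.7% and 16.8% of all transcripts at 1 TPM in at least 1 library. 

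Gm14820-001, which meets Suv39h1 tail to tail on the X chromosome, stood at 287 and 316 TPM in GV and 9.90 and 10.3 in MII, lower in MII with a log2 fold change of −4.20 ± 0.44 (adjusted p = 0.00695). Gm5577-003, head to head with the linker histone gene H1fx, stood at 3.09 and 3.94 TPM in GV and had no rounded count in MII, at least 92.9-fold lower (adjusted p = 0.00739). Tnfsf13os-002 was at 7.62 and 10.2 TPM in GV and 0 in both MII libraries, at least 75.6-fold lower (adjusted p = 0.00855). 2900093K20Rik-001, inside Oser1 without exonic overlap, stood at 2.63 and 3.01 TPM in GV and 0 and 0.0205 in MII (adjusted p = 0.0193). Oser1 was also lower in MII, with a log2 fold change of −4.15 ± 0.37 (adjusted p = 0.000518).

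A smaller set was higher in MII. Gm15629-001 (chr14:75197073-75199271, minus strand), inside the actin-bundling protein gene Lcp1, stood at 32.1 and 46.6 TPM in GV, 148 and 160.3 in MII, and 0 in all cultured libraries. It was higher in MII than GV by 2.66 ± 0.52 on the log2 scale (adjusted p = 0.0273). The call was lost without any 1 of the 4 libraries, with values of 2.34 without GV replicate 1 and 3.26 without GV replicate 2. Lcp1 went the other way, from 49.2 and 28.9 TPM in GV to 3.41 and 4.29 in MII, by −3.08 ± 0.52 (adjusted p = 0.00157). The 2 share 46.0% of the antisense exonic bases. 6330562C20Rik-001, which starts 336 bases from the start of the ceramide synthase gene Cers2, stood at 8.80 and 11.3 TPM in GV and 46.3 and 44.3 in MII, higher by 2.86 ± 0.52 (adjusted p = 0.0127). Gm28989-001 and 2810408I11Rik-001 were higher in MII than GV by 2.37 ± 0.36 (adjusted p = 0.00861) and 2.21 ± 0.38 (adjusted p = 0.0111). As with every call of MII against GV, these were lost without MII replicate 1. That of 6330562C20Rik-001 was also lost without GV replicate 1, and that of 2810408I11Rik-001 without either GV replicate.

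Between EpiC and ESC, 0 members were higher and 2 lower by edgeR's quasi-likelihood test, 0.153% lower against 0.0517% higher and 0.089% lower over all transcripts. At an unadjusted p under 0.05, 40 were higher and 64 lower, or 3.07% and 4.90%, near the 4.1% and 4.6% of all transcripts. DESeq2 called 14 and 30, limma on log2(TPM + 1) 23 and 60, and limma on log2(TPM + 0.1) 19 and 50. Both calls were isoforms of Gm14820, and 0 lower calls remained with the replicate number as a block. Gm14820-001 stood at 5.87 and 3.46 TPM in ESC and 0 in both EpiC libraries, at least 99.6-fold lower in EpiC (adjusted p = 0.0337). Gm14820-002 stood at 4.14 and 3.71 TPM in ESC and 0 in EpiC, at least 29.8-fold lower (adjusted p = 0.0486). Neither call was kept without any 1 of the 4 libraries of this comparison. Gm14820-003, the isoform with the highest level in ESC, went from 25.7 and 27.2 TPM to 0.209 and 0.0966 without passing the test (adjusted p = 0.0914). Srrm4os-001 also had groups that did not overlap, at 6.62 and 4.38 TPM against 0.190 and 0.0929 (adjusted p = 0.15). A930024E05Rik-001 went from 1.03 in both ESC libraries to 13.2 and 12.7 in EpiC (adjusted p = 0.213).

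Gm14820 changed its isoforms as well as its level. Isoform 001 made up 81.4% and 84.4% of the locus TPM in GV, 64.4% and 74.1% in MII, and 13.3% and 8.31% in ESC. Isoform 003 made up 0.594% and 3.81% in GV, 4.50% and 11.1% in MII, and 58.3% and 65.4% in ESC. In that of A530040E14Rik, A530040E14Rik-201 made up 41.8% and 25.9% in GV and 63.7% and 64.5% in MII, while isoform 006 made up 19.8% and 32.1% in GV and 3.56% and 7.07% in MII. Isoform 001 of Arhgap20os made up 57.1% and 50.2% in GV and 60% and 61.7% in MII. Shares carry the assignment error of the isoform estimates and were not tested.

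Antisense members were next set beside the gene opposite them, using counts summed per gene and the same edgeR model. Of members tested, 996 had a tested gene on the other strand, 793 genes in all. In GV against ESC, 28.3% of all genes tested were higher in GV and 31.3% lower. Such shares are over all genes tested and not over the genes of these pairs alone. Of the 295 members higher in GV in these pairs, 158 (53.6%) faced a gene that was also higher and 52 (17.6%) a gene that was lower. Of the 79 members lower in GV, 43 (54.4%) faced a gene that was lower and 16 (20.3%) one that was higher. Among members not called, 179 faced a higher gene, 207 a lower gene and 236 a gene not called. In MII against EpiC, 28.5% of genes were higher and 39.6% lower. There, 142 of 229 higher members (62.0%) faced a higher gene and 75 of 159 lower members (47.2%) a lower gene. Among members not called, 227 faced a higher gene, 235 a lower gene and 146 a gene not called. Without exonic overlap, 41 of 77 higher members (53.2%) faced a higher gene and 18 (23.4%) a lower one. Of the 36 lower members without exonic overlap, 14 (38.9%) faced a higher gene and 12 (33.3%) a lower one. In MII against GV, 17.4% of genes were higher and 22.2% lower, and 23 of 57 lower members faced a lower gene. In EpiC against ESC, 2.63% of genes were higher and 2.83% lower, and no pair was called on both sides.

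Across pairs, which share libraries and are not independent replicates, the fold changes of antisense member and sense gene had a Pearson r of 0.343 in GV against ESC, 0.343 in MII against EpiC, 0.339 in EpiC against ESC and 0.183 in MII against GV (n = 996 pairs). In GV against ESC r was 0.304 over the 285 pairs with no exonic overlap and 0.359 over the 711 with overlap. In MII against EpiC these values were 0.236 and 0.379, and in MII against GV 0.0751 and 0.215. Of pairs called on both sides, 74.7% moved the same way in GV against ESC (76.9% without exonic overlap) and 72.3% in MII against EpiC (62.4% without exonic overlap). Among these pairs both strands had more higher than lower calls, which alone puts the share above an even split. The share to be had from those numbers of calls was not computed. Of the 125 members with 90% or more of their bases on exons of the other strand, 8 faced a gene at 100 TPM or more in GV, and 4 of these 8 were under 1 TPM. In ESC 7 faced such a gene, and all 7 were under 1 TPM.

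**Figure D3:**
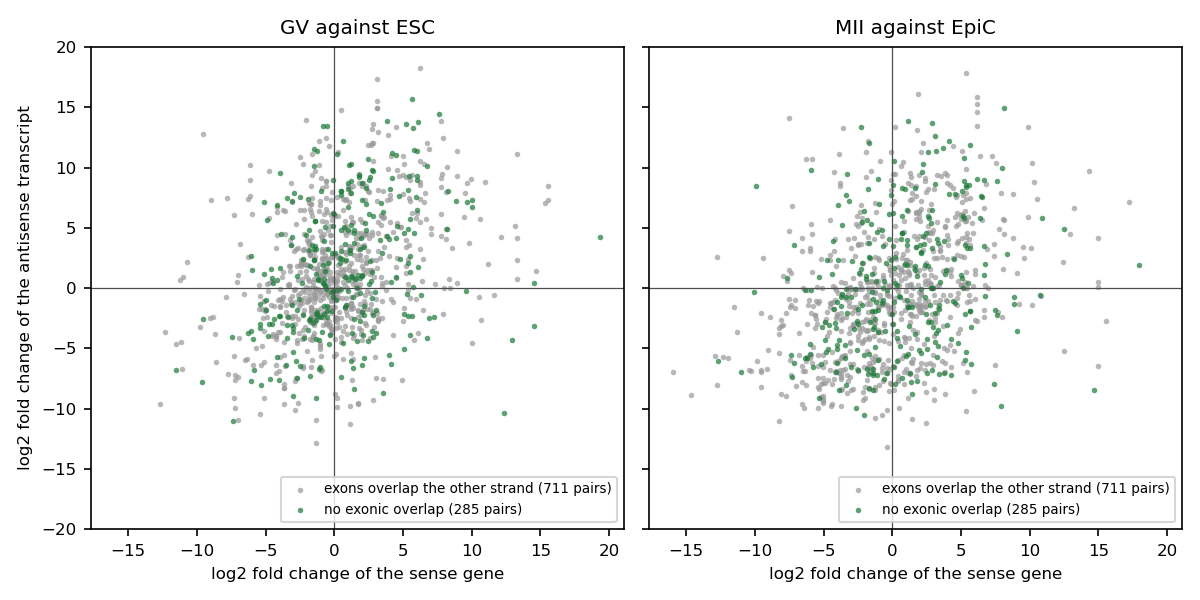
Log2 fold change of the sense gene (horizontal) and of the antisense transcript (vertical) for 996 pairs, in GV against ESC and MII against EpiC; green points have no exonic overlap with the other strand (285 pairs) and grey points do (711 pairs). Points spread over all 4 quadrants with more in the quadrants of equal sign, with a Pearson r of 0.343 in both panels.

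At some loci the 2 strands differed in opposite directions. Suv39h1, the gene of a histone H3 lysine 9 methyltransferase, stood at 0.752 and 2.21 TPM in GV, 0.0630 and 0.171 in MII, 5.47 and 7.78 in ESC, with 41.2 and 38.0 in EpiC. Its antisense partner Gm14820-001 had 287 and 316, 9.90 and 10.3, 5.87 and 3.46, and 0 in those groups. This isoform exceeded Suv39h1 in all 4 oocyte libraries, and Suv39h1 exceeded it in both EpiC libraries. Over all its isoforms Gm14820 stood at 44.1 and 41.6 TPM in ESC, above Suv39h1, with isoform 003 the largest part. In MII against EpiC Gm14820-001 was at least 215-fold higher (adjusted p = 0.000206). Suv39h1 was lower there, with a log2 fold change of −7.51 ± 0.87 (adjusted p = 8e-05). In GV against ESC Suv39h1 was lower, at −1.85 ± 0.66 (adjusted p = 0.0357), and in EpiC against ESC its 2.74 ± 0.68 missed the threshold (adjusted p = 0.0507).

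Tbx3os1-003 starts 696 bases from the start of Tbx3, a transcription factor of naive pluripotency. It stood at 94.3 and 79.6 TPM in GV, 18.1 and 9.09 in MII, 0.845 and 1.14 in ESC, with 0 in EpiC. It was higher in GV than ESC by 7.43 ± 0.85 on the log2 scale (adjusted p = 0.00197). Tbx3 was at 0.995 and 0.913 TPM in GV and 69.3 and 84.8 in ESC, and its change in GV against ESC was −6.29 ± 0.66 on the log2 scale (adjusted p = 7.25e-05). Gm42567-001 starts 42 bases from the start of Tet2, which oxidises methylated cytosine, and had the same pattern at a lower level. It stood at 13.5 and 11.9 TPM in GV, 3.22 and 1.90 in MII, 0 and 0.197 in ESC, with 0.152 and 0.0521 in EpiC (adjusted p = 0.00579 for GV against ESC). Tet2 stood at 0.582 and 0.489 TPM in GV and 61.8 and 82.9 in ESC, lower with a log2 fold change of −7.80 ± 0.50 (adjusted p = 7.95e-06). Platr12-001 and Gpr1 showed the reverse arrangement: the antisense had counts in cultured cells only, and Gpr1 stood at 252 and 168 TPM in GV and 0.0313 and 0.0745 in ESC.

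**Figure D4:**
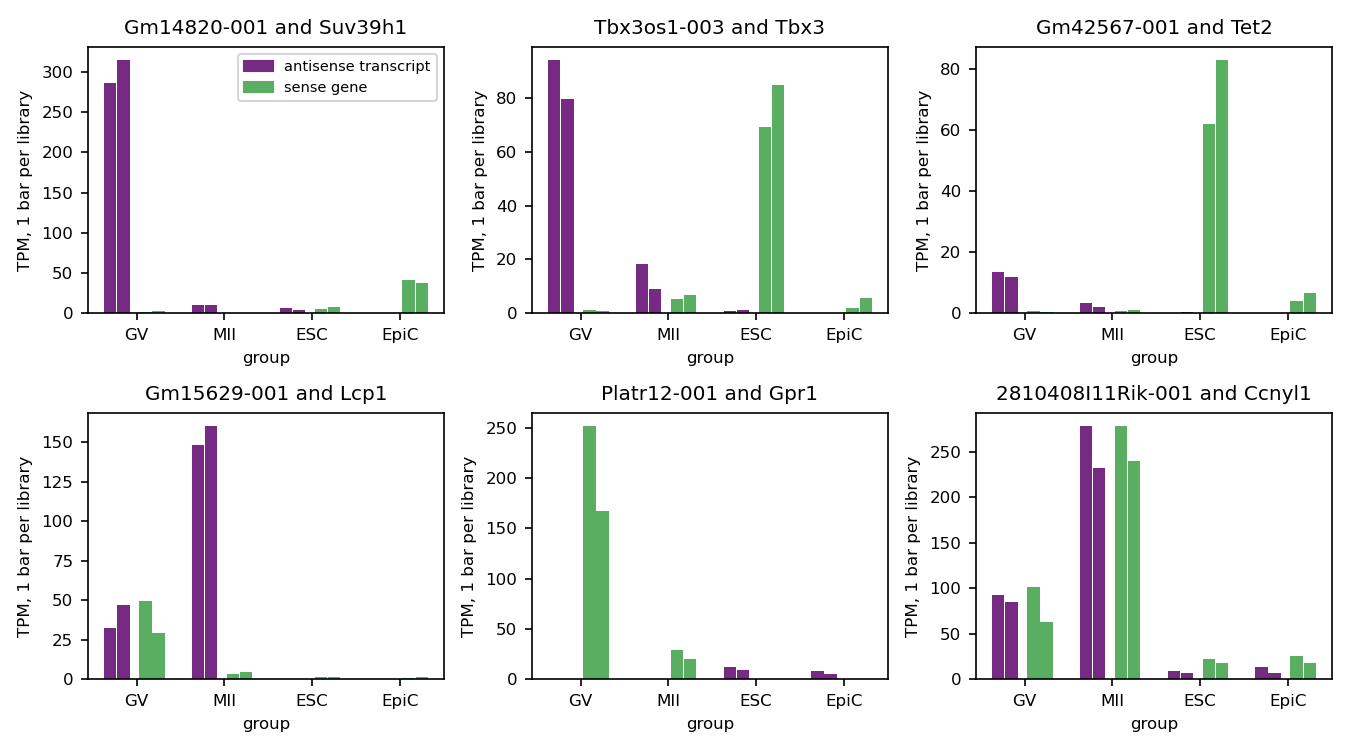
TPM of 6 antisense transcripts (purple) and of the gene on the other strand (green) in each library, 1 bar per library, on linear axes from 0. Gm14820-001, Tbx3os1-003 and Gm42567-001 are high in GV where Suv39h1, Tbx3 and Tet2 are low, Gm15629-001 rises in MII while Lcp1 falls, and 2810408I11Rik-001 follows Ccnyl1.

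Several antisense RNAs with established roles, or isoforms of them, were higher in cultured cells. Tsix-001, the antisense of Xist, stood at 4.43 and 8.23 TPM in ESC, 1.46 and 4 in EpiC, and at most 0.0114 TPM in oocytes. Its 2 counts in GV gave an ESC to GV ratio of 1343 with a counting interval of 372 to 11092 (adjusted p = 0.0047). Xist was at most 1.38 TPM in every library and was not called in any of the 4 comparisons. Snhg14, the long transcript that extends toward Ube3a, differed by isoform. Snhg14-006 stood at 13.8 and 11.6 TPM in ESC and 72.4 and 21 in EpiC, against 1.23 and 0.3 in GV and 0.0954 and 0.0726 in MII. The lower call of isoform 006 in GV against ESC (adjusted p = 0.021) was lost without GV replicate 2 and without ESC replicate 1. Snhg14-011 stood at 29.4 and 23.9 TPM in GV, 1.08 and 2.47 in MII, 3.66 and 9.80 in ESC, with 3.42 and 10.7 in EpiC. It was higher in GV than ESC (adjusted p = 0.0486) and made up 48.5% and 50.4% of the locus in GV. The locus sums of GV (60.5 and 47.3 TPM) and ESC (42.2 and 98.5 TPM) overlapped. Zfas1-001, which starts 81 bases from the start of the helicase-like gene Znfx1, stood at 26.7 and 46.1 TPM in ESC, 15.2 and 47.7 in EpiC, 0.897 and 1.19 in GV, and 0.0541 and 0.0999 in MII. Znfx1 was the reverse, at 61.8 and 35.9 TPM in GV, 77.7 and 87.3 in MII and 4.51 to 11.5 in cultured cells. Both Zfas1 and Snhg14-006 passed the test in MII against EpiC (adjusted p = 0.00293 and 0.00134).

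Kcnq1ot1-001 depended on the replicate. It stood at 0.319 and 3.29 TPM in ESC and 0.328 and 3.92 in EpiC, against at most 0.0592 in oocytes, with replicate 2 far above replicate 1 in both cultured groups. It was called in GV against ESC (adjusted p = 0.0497), with a log2 fold change of −4.53 that was −2.32 and not called without ESC replicate 2. Nespas-002, antisense at the Gnas locus, stood at 2.19 and 4.59 TPM in ESC, 3.28 and 5.82 in EpiC and at most 0.468 in oocytes, lower in MII than EpiC with a log2 fold change of −4.25 ± 0.87 (adjusted p = 0.00773). Airn-001 stood at 1.27 and 1.05 TPM in GV, 1.08 and 0.676 in MII, 0.248 and 0.810 in ESC, with 0.289 and 1.5 in EpiC, and was not called in any comparison. Uchl1os-002, which starts 58 bases from the start of the ubiquitin hydrolase gene Uchl1, was on the oocyte side, at 6.24 and 6.31 TPM in GV, 13.3 and 10.9 in MII, and 0.0898 or less in cultured cells. It passed in GV against ESC (adjusted p = 0.00183) and in MII against EpiC (adjusted p = 0.000971). The isoforms of Six3os1, Evx1os and Igf2os, antisense RNAs of developmental and imprinted loci, stayed under 1 TPM as group means in all groups.

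Members were then grouped by lists of sense genes. The shares called over all transcripts, against which the counts are read, were 19.2% higher and 16.7% lower in GV against ESC and 18.7% and 27.5% in MII against EpiC. Of 44 imprinted and X inactivation genes, 9 had antisense members, 22 in number, of which 14 were tested. In GV against ESC 1 was higher and 5 lower, and in MII against EpiC 1 higher and 7 lower. The higher one was Zim3-001, which overlaps Usp29, at 3.42 and 2.01 TPM in GV and 0.241 and 0.189 in ESC, a call that was lost without ESC replicate 2. The lower ones included Tsix-001, Kcnq1ot1-001 and Nespas-001. The median log2 fold change over the 14 was −1.89 in GV against ESC and −4.15 in MII against EpiC, beside −0.69 and −1.96 over all transcripts. Of 131 developmental transcription factor genes, 32 had 69 antisense members, 18 of them tested, with 1 higher and 2 lower in GV against ESC and 1 higher and 6 lower in MII against EpiC, lower counts near those shares. The higher one was Gm20395-001 at Pax2.

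Of 32 formative and primed epiblast genes, 8 had antisense members, and 8 members were tested. In MII against EpiC 1 was higher and 4 lower, among them Gm16136-001, head to head with the epithelial factor gene Grhl2. It stood at 3.25 and 2.77 TPM in EpiC, 0 and 0.0405 in ESC and 0 in oocytes, and Grhl2 at 25.3 and 14.3 TPM in EpiC and 1.38 and 1.36 in ESC. In EpiC against ESC the median log2 fold change of these 8 was 4.35, beside 0.00 over all transcripts, and 0 were called. Of 36 pluripotency genes, 5 had antisense members, 4 tested, of which 2 (Tbx3os1-003 and Gm42567-001) were higher in GV than ESC and in MII than EpiC and 0 lower. Of 52 oocyte genes, 2 had an antisense member and 1 was tested. Gm28523-001, opposite the phosphodiesterase gene Pde3a, which holds the oocyte's cAMP level and is the target of milrinone, stood at 2.89 and 2.14 TPM in GV and 0.0391 and 0.117 in ESC (adjusted p = 0.00492). Of 39 microRNA pathway genes, the theme of the series, 1 had an antisense member, Gm28375-001 at Dis3l2, at 1.82 and 2.00 TPM in GV and 0.171 or less in ESC. Its call in GV against ESC (adjusted p = 0.0449) was lost without any 1 of those 4 libraries. None of the 28 metabolism and housekeeping genes had an antisense member.

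By layout, shares called higher in GV than ESC ran from 25.9% of the 220 tested members with no overlapping gene to 33.5% of the 472 inside a gene and 33.8% of the 74 that span one, with 26.4% of the 314 head to head and 28.5% of the 221 tail to tail. Shares called lower ran from 4.05% of spanning members to 12.3% of those with no overlapping gene. In MII against EpiC, higher calls ran from 17.3% of members with no overlapping gene to 31.1% of spanning ones, and lower calls from 14% of members inside a gene to 23.2% of those with no overlapping gene. In every group with at least 1 TPM of antisense and an overlapping gene, both orders of level occurred: in GV 170 of 327 members exceeded the sense gene's TPM and 157 were below it, in MII 97 and 65 of 162, in ESC 75 and 114 of 189, and in EpiC 81 and 114 of 195.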

How the data were processed

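Stranded paired-end libraries of 8 samples were used, 2 each of GV, MII, ESC and EpiC. Per the submitters' processing notes and the file headers, the authors deposited for each library the estimated counts and the TPM of kallisto 0.43 on the mm10 build, 1 value per transcript. Neither source states a strand setting, and no resampling of the assignment was used. Estimated counts were rounded and fitted with edgeR 4.0.16 in R 4.3.3 (filterByExpr with its minimum count of 10, TMM scaling, robust quasi-likelihood test, 1 coefficient per group, all 8 libraries, 4 residual degrees of freedom). P-values were Benjamini-Hochberg adjusted over all transcripts, with a threshold of 0.05, and sums of counts per gene were fitted likewise. Standard errors follow from the fold change and the F statistic. A group without a count gives a bound from 3 counts per library.

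Members were placed by identifier on GENCODE M21. Total estimated counts per library are given with the results, and intervals cover counting error only. The members and lists were chosen with earlier results of these data known. Named were the 10 members of highest mean TPM per group, the 8 largest called changes per comparison and direction with the higher group at 1 TPM or more, members named as antisense or known regulators, and up to 5 called members per list of sense genes. Gm14820-003, Snhg14-011, the other isoforms of Arhgap20os and members shown for their sense gene were named after their values were seen. Alternatives were RLE scaling, no count filter, the replicate number as a block, the compared groups alone, each library left out, DESeq2 1.42.0, limma 3.58.1 on log2(TPM + 1) and log2(TPM + 0.1), gene sums, and members without exonic overlap. The model was tested on simulated counts for GV against ESC over 61432 transcripts. It recovered 0% of 100 transcripts changed 4-fold and 12.0% of 100 changed 16-fold, with 1 false call. No other transcripts were changed there, whereas 13408 of 69656 were called higher and 11645 lower in the data. The adjustment depends on that share, so the recovery is not the power of the test on the data.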

Additional observations from a re-analysis of the deposited data

How the results depend on the processing

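Without each library in turn, counts of members called higher and lower ranged from 177 to 245 and 28 to 47 in GV against ESC, 189 to 255 and 68 to 133 in MII against EpiC, 0 to 5 and 0 to 27 in MII against GV, and 0 to 0 and 0 to 0 in EpiC against ESC. Fewer libraries were fitted there, and for other changes the cause was not tested. Members lower in GV than ESC (108) numbered 183 with RLE scaling, 193 with the compared groups alone, 208 with DESeq2, 258 and 327 with limma at pseudocounts of 1 and 0.1, and 194 by gene sums. Members lower in MII than EpiC (224) numbered 341 and 485 with limma. Members higher in MII than GV (9) numbered 14 with RLE scaling, 35 with the compared groups alone, 49 with DESeq2, 26 and 20 with limma, and 34 by gene sums. Members lower in MII than GV (77) numbered 176 with the compared groups alone, 189 with DESeq2, 373 and 385 with limma, and 133 by gene sums. In EpiC against ESC, higher calls (0) numbered 1 without the count filter, 14 with DESeq2, 23 and 19 with limma, and 7 by gene sums. Lower calls (2) numbered 1 with RLE scaling, 7 without the filter, 0 with the compared groups alone, 30 with DESeq2, 60 and 50 with limma, and 12 by gene sums. Members without exonic overlap, a smaller set, gave 159 and 49 in GV against ESC, 123 and 91 in MII against EpiC, 3 and 22 in MII against GV, and 1 lower in EpiC. Mean numbers of members per library at 0.5 and 5 TPM were 542.5 and 174 (GV), 291 and 69.5 (MII), 421 and 53 (ESC), 418 and 48.5 (EpiC). By share of estimated counts in place of summed TPM, the ratio GV to ESC went from 3.80 to 2.91, MII to EpiC from 1.07 to 0.601, and MII to GV from 0.325 to 0.266. Among pairs without exonic overlap, 62.4% of those called on both sides moved the same way in MII against EpiC and all 4 (100%) in MII against GV. With the replicate number as a block, counts were 388 and 104, 292 and 209, 10 and 85, and 0 and 0. Same-numbered libraries deviated together with correlations of 0.197 (GV and MII) and 0.525 (ESC and EpiC) and 0.0275 to 0.0629 between other groups. The labels do not tie the numbers to animals, dishes or days, so they were not taken as a pairing. A deviation shared by ESC and EpiC of the same number therefore stays in the spread used by that test.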
